A study of Mus musculus with 8 samples.

Results

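The genes described here are 52 genes of the cell cycle, 23 that work in DNA replication and its preparation and 29 that work in mitosis. They were chosen by symbol, matched through GENCODE M21 on GRCm38, and all 52 had a row among the 25700 identifiers of the count tables. Polyadenylated RNA was sequenced from uncultured brain endothelium, isolated by FACS from C57BL/6 pups on postnatal day 6. The 4 KO pups carried the genotype GLUT1EC-/-, a loss of the glucose transporter GLUT1 (gene Slc2a1) in endothelial cells. The 4 WT pups were wild type. The sources used here do not give the driver and timing of the deletion, the sort gate or the sexes. By title the 4 KO pups shared a cage with WT pup 5, and WT pups 1, 2 and 3 had a cage of their own. By file name it was WT pup 3, and not WT pup 5, that was housed with KO pups. Genotype and cage can therefore hardly be told apart, nor can genotype and litter if each cage held its own litter. Pups are named here by title.

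A dividing cell copies its DNA in S phase and divides in mitosis. Before S phase, CDC6 and CDT1 load the MCM helicase onto replication origins, and cyclin D and cyclin E kinases release E2F factors, which switch on the replication genes. The mitotic genes follow in G2 under MuvB complexes, B-MYB and FOXM1, which act at a promoter element called the CHR, and resting cells hold the same genes down through the DREAM complex and RB. The CDK inhibitor p21, encoded by Cdkn1a, favours that repressed state. Brain vessels of the mouse still grow in the first postnatal week, and growing vessels contain dividing endothelial cells. In bulk RNA, fewer cycling cells and less RNA per cycling cell cannot be told apart.

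The classes differ in the letters of their promoters, and 8 stretches of 120 bases are shown because they carry the letters of an element known from each class. RefSeq (GRCm38.p6) promoter entries of 300 bases, 250 before and 50 after the start of the gene, matched 42 of the 52 members, 18 of replication and 24 of mitosis. For 8 roles with a matching entry, the stretch belongs to the highest member whose entry holds the class motif, and it is centred on the copy nearest the start where the entry allows. Capitals mark an E2F motif (TTTCCCGC, TTTCGCGC, TTTGCCGC or TTTGGCGC) in the first 2 stretches and a CHR motif (TTTGAA or TTTAAA) in the other 6, on either strand.
Mcm6 (chr1:128359689-128359808, minus strand): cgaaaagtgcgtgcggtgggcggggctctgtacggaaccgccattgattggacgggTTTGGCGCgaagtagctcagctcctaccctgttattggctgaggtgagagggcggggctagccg
Pola1 (chrX:93632230-93632349, minus strand): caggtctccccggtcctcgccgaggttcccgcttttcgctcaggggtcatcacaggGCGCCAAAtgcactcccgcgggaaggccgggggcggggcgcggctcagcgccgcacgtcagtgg
Cdk1 (chr10:69352865-69352984, minus strand): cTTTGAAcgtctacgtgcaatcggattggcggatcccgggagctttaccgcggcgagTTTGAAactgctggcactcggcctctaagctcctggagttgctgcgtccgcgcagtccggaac
Mki67 (chr7:135716415-135716534, minus strand): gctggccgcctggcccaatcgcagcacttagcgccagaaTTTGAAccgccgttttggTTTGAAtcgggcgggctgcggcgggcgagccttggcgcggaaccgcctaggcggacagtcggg
Cenpe (chr3:135212493-135212612, plus strand): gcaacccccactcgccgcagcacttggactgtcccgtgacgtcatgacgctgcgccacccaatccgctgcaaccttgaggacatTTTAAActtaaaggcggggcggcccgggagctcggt
Cdc20 (chr4:118437299-118437418, minus strand): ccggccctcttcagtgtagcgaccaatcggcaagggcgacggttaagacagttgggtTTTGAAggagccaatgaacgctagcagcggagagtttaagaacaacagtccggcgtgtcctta
Birc5 (chr11:117848987-117849106, plus strand): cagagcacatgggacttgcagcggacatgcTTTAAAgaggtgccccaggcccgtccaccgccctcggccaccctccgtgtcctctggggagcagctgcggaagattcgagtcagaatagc
Prc1 (chr7:80294381-80294500, plus strand): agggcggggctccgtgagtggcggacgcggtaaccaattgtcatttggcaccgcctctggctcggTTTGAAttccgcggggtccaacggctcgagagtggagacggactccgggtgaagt

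A CHR motif was present in 21 of 24 mitosis entries (87.5%), in 5 of 18 replication entries (27.8%) and in 19.0% of the 10782 promoters of tested genes with an entry. Within 50 bases of the start it was present in 19 mitosis entries (79.2%), 2 replication entries (11.1%) and 4.86% of tested genes. Cdk1 carried it at -15, Cdc20 at -18 and Prc1 at -5, counted to the motif's first base from the start site as 1 with no 0. The copy nearest the start was at 15 in Cenpe, but at -98 in Mki67 and at -220 in Birc5, both outside the window of 50 bases. Bub1, Nusap1 and Nuf2 were the mitosis entries without a CHR motif. An E2F motif was present in 7 of 18 replication entries (38.9%), in 1 of 24 mitosis entries (4.17%, Cdk1) and in 4.07% of tested genes. Its 7 holders were Mcm3, Mcm5, Mcm6, Mcm7, Cdc6, Cdt1 and Pola1, of which 6 load or form the origin helicase. The E2F copy nearest the start was at -47 in Mcm6 and at -138 in Pola1. A CCAAT box (CCAAT, either strand) was present in 66.7% of replication and 79.2% of mitosis entries against 38.4% of tested genes. TTTAAA reads the same on both strands and was counted once, and copies of the E2F motif can overlap each other. These are matches of letters, not measured binding sites.

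Total counts, in units of 1000000 (M), were 20.9 to 40.8 M in KO pups and 25.9 to 114 M in WT pups, and the members together took 49392 to 264774 counts per library. The targeted gene Slc2a1 measured 1386 to 1602 CPM (counts per 1000000) in KO and 2238 to 3726 CPM in WT, without overlap, and its log2 fold change was -1.01 (SE 0.14, edgeR adjusted p 0.00619). That call was lost with cage by file name as a term (-0.89, adjusted p 0.331) and over KO and WT pups 1 to 3 alone (-0.93, adjusted p 0.0524), with a range of adjusted p over 20 alternatives of 3.56e-11 to 0.331. KO pup 1 stood apart from the other libraries, with 13624 detected genes against 15756 to 17082, and members' fold changes that moved most without it are given both ways. All 10 endothelial markers were detected in every library, summing to 13470 to 14980 CPM in KO and 14130 to 15240 CPM in WT. Markers of other cells were also present, with no listed marker at 0 in all libraries. Microglia and macrophage markers (10 of 10 detected) summed to 926 to 2537 CPM in KO and 885 to 1388 CPM in WT, mural markers (8 of 8) to 1755 to 2642 and 475 to 2665 CPM, and erythroid markers (5 of 6) to 569 to 1001 and 522 to 1630 CPM. Neural progenitor markers (4 of 7 detected in all libraries) summed to 3.68 to 8.86 CPM in KO and 2.50 to 6.78 CPM in WT. The part of these cells in the levels of the members was not tested.

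The comparison of KO with WT asked whether endothelium of the GLUT1EC-/- genotype, in which Slc2a1 transcript was lower but still present, carries other amounts of cell-cycle transcripts. All 52 members passed the filter on low counts, and none differed by genotype in edgeR's quasi-likelihood test adjusted over all 14154 tested genes, where 0.389% of genes were called. The smallest adjusted p among members was 0.55 (Aurka). At an unadjusted p under 0.05 the number was also 0 of 52, against 11.1% of all tested genes, and DESeq2 and limma-voom each called 0 of 52. In no member did the KO pups lie entirely above or below the WT pups, against 7.19% of all tested genes. The median log2 fold change was -0.03 over the replication members (mean 0.00) and 0.06 over the mitosis members (mean 0.06), against 0.00 over all tested genes. Of 29 mitosis members 22 had a fold change above 0, and of 23 replication members 10 did, against 7125 of all 14154 tested genes. The mitosis number depended on single pups. Leaving out 1 library it ran from 11 (without WT pup 5) to 25 (without KO pup 2 or without WT pup 2). It was 29 with cage by title as a term and 6 with cage by file name. Members vary together over pups, so their signs are not independent.

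The 95% intervals of the fold changes say what sizes of change these pups leave room for in the fit on genotype alone. They carry no uncertainty from cage, and the median log2 fold changes moved when cage was added. By title the medians were 0.34 (replication) and 0.39 (mitosis), and by file name -0.14 and -0.16. All 52 intervals included 0. For 50 members the interval lay within a 2-fold change in either direction and for 40 within 1.5-fold, 15 of replication and 25 of mitosis. Rrm1, the large subunit of ribonucleotide reductase, had the narrowest interval (-0.10 to 0.31 on the log2 scale). Ccne1 (-1.82 to 0.94) and Cdc6 (-1.15 to 0.76) had intervals that passed 2-fold, and KO pup 1 was the lowest library for both. An interval that includes 0 does not show that the genotypes are alike.

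**Figure D1:**
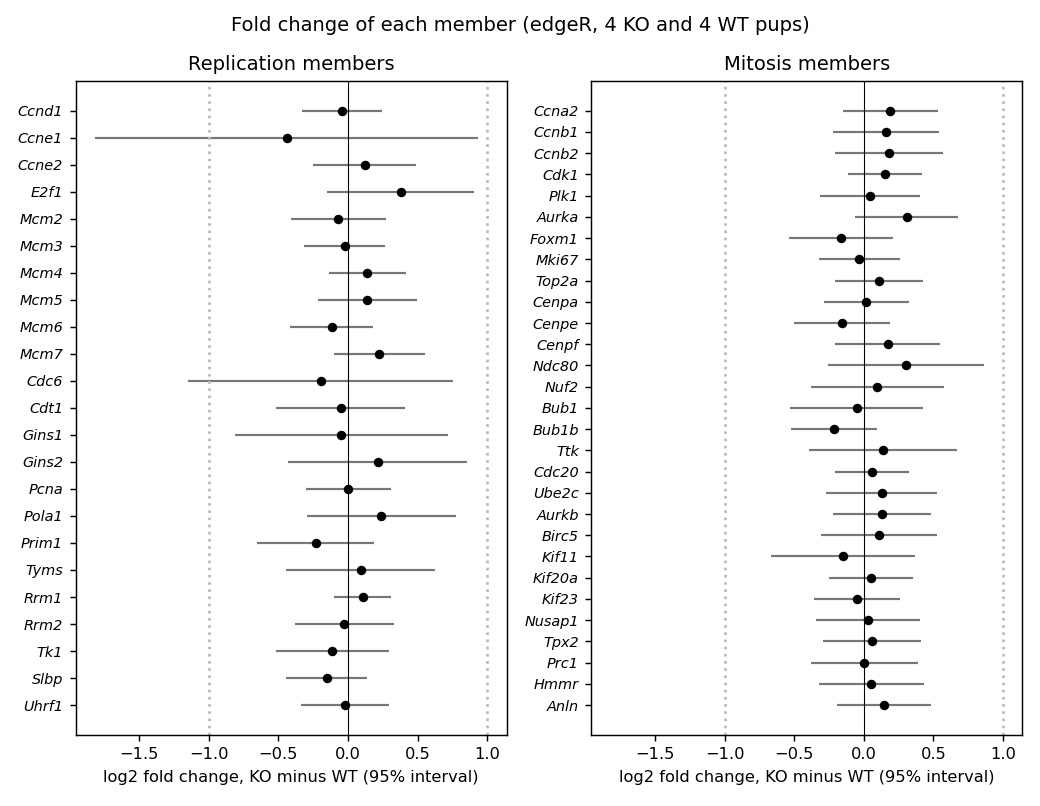
Log2 fold change of KO minus WT for each of the 23 replication members (left) and 29 mitosis members (right), in order of role, as points with approximate 95% intervals derived from edgeR's F test (4 KO and 4 WT pups). Every interval crosses the line at 0, and those of Ccne1 and Cdc6 pass the dotted line at -1, a 2-fold decrease.

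Among the genes that open the way to S phase, Ccnd1, which encodes cyclin D1, was the most abundant member, also per length of exon (85.0 CPM per kilobase in WT). It measured 402, 386, 411 and 355 CPM in KO pups 1 to 4 and 371, 524, 319.9 and 387 CPM in WT pups 5, 1, 2 and 3, the order used for all values below. The KO pups lay within the range of the WT pups, and the log2 fold change was -0.04 (SE 0.13, adjusted p 0.95). Ccne1, which encodes cyclin E1, measured 0.192, 5.26, 8.25 and 5.85 CPM in KO and 5.20, 7.66, 6.24 and 7.56 CPM in WT. KO pup 1, with 4 counts, stood far below the other 7 libraries, whose genotypes overlapped. Its log2 fold change was -0.44 (SE 0.63) with all pups and -0.05 without KO pup 1. Ccne2, the second cyclin E gene, measured 9.20 to 14.3 CPM in KO and 9.77 to 12.1 CPM in WT with no such low library. E2f1, the E2F factor of the S-phase entry, measured 23.4, 12.9, 17.2 and 16.8 CPM in KO and 8.75, 17.1, 11.1 and 17.1 CPM in WT. Here KO pup 1 was the highest of the 8, and the log2 fold change went from 0.38 (SE 0.24) to 0.21 without it.

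No gene of origin licensing was called. Of the 6 subunits of the MCM helicase, Mcm6 was the highest, with 118, 89.6, 102 and 107 CPM in KO and 93.2, 139, 95.4 and 125 CPM in WT. WT pup 1 was the highest of the 8 for Mcm6, and also for Mcm2, Mcm3, Mcm4 and Mcm5. The subunits' log2 fold changes ran from -0.12 (Mcm6, SE 0.14) to 0.22 (Mcm7, SE 0.15). KO pup 1 was the highest library for Mcm7 (63.1 CPM), and without it the Mcm7 value was 0.11. The helicase loader Cdt1 measured 9.74 to 18.1 CPM in KO and 11.1 to 16.6 CPM in WT. The other loader, Cdc6, measured 1.49, 6.51, 8.46 and 8.48 CPM in KO and 4.26, 8.94, 7.25 and 8.19 CPM in WT, with KO pup 1 again far below the rest. Its log2 fold change was -0.20 (SE 0.43) with all pups and 0.12 without KO pup 1, and it was called in neither.

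At the replication fork, Pcna, the sliding clamp of the DNA polymerases, measured 68.3, 92.0, 102 and 96.5 CPM in KO and 71.0, 103, 94.1 and 89.7 CPM in WT. KO pup 1 and WT pup 5 were the low libraries, 1 in each group, and the log2 fold change was 0.00 (SE 0.14), and 0.11 without KO pup 1. Per length, Pcna ranked second among the members in WT, at 37.3 CPM per kilobase. The GINS subunits Gins1 and Gins2, part of the active helicase at the fork, measured 2.01 to 5.09 and 5.51 to 10.8 CPM in KO and 2.29 to 4.798 and 4.10 to 10.3 CPM in WT. Their log2 fold changes were -0.05 (SE 0.35) and 0.21 (SE 0.29) with all pups, and 0.15 and 0.07 without KO pup 1. Pola1 and Prim1, a polymerase and a primase subunit of the complex that starts each new strand, had log2 fold changes of 0.24 (SE 0.24) and -0.23 (SE 0.19). KO pup 1 was the highest of the 8 for Pola1 (28.2 CPM) and the lowest for Prim1 (8.01 CPM), and without it those fold changes were 0.04 and -0.10.

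The 4 genes of nucleotide supply and 2 of chromatin copying also held no called gene. Rrm1 measured 84.3, 77.0, 95.6 and 89.5 CPM in KO and 70.5, 87.2, 82.4 and 81.7 CPM in WT (log2 fold change 0.11, SE 0.09). The small reductase subunit Rrm2 measured 28.7 to 39.8 CPM in KO and 29.3 to 48.4 CPM in WT. Thymidylate synthase, Tyms, had its highest value in KO pup 4 (37.6 CPM) and its lowest in WT pup 5 (15.5 CPM), and thymidine kinase, Tk1, ran from 18.9 CPM in WT pup 5 to 34.4 CPM in WT pup 3. Slbp, which binds histone messenger RNA, and Uhrf1, which keeps DNA methylation on the copied strand, had log2 fold changes of -0.15 (SE 0.13) and -0.02 (SE 0.14). Without KO pup 1, its lowest library, Slbp was at -0.05.

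In the mitosis set, the kinase gene Cdk1 measured 93.1, 72.2, 94.2 and 87.9 CPM in KO and 64.9, 75.9, 76.9 and 94.6 CPM in WT, with a log2 fold change of 0.15 (SE 0.12, adjusted p 0.71). KO pup 2 and WT pup 5 were the lowest libraries and the groups overlapped. Its cyclins Ccna2, Ccnb1 and Ccnb2 had log2 fold changes of 0.19, 0.16 and 0.18, the last of which was 0.09 without KO pup 1. Aurka, a spindle kinase, had the smallest p of the 52 members, with 23.6, 14.6, 20.8 and 18.1 CPM in KO and 12.3, 17.8, 15.5 and 16.5 CPM in WT. Its log2 fold change was 0.31 (SE 0.17), and 0.20 without KO pup 1, its highest library. Plk1, a kinase that acts from mitotic entry to exit, measured 17.6 to 29.4 CPM in KO and 20.9 to 28.1 CPM in WT. Foxm1, the transcription factor of the mitotic genes, measured 26.4, 31.6, 43.4 and 38.3 CPM in KO and 29.4, 38.9, 42.3 and 45.8 CPM in WT. Its log2 fold change was -0.16 (SE 0.17), and -0.05 without KO pup 1, its lowest library.

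The proliferation marker Mki67 measured 162, 113, 177 and 164 CPM in KO and 134, 160, 177 and 159 CPM in WT, and its log2 fold change was -0.03 (SE 0.13, 95% interval -0.33 to 0.26). Top2a, the topoisomerase that untangles sister chromatids, measured 136, 103, 156 and 147 CPM in KO and 96.5, 137, 141 and 127 CPM in WT (log2 fold change 0.11, SE 0.14). For both genes, KO pup 2 and WT pup 5 were the lowest 2 of the 8 libraries. The fold changes of the 5 kinetochore genes ran from -0.16 to 0.30, about as widely as those of the mitotic cyclins, kinases and Foxm1 (-0.16 to 0.31). Ndc80, whose protein holds the microtubule, had a log2 fold change of 0.30 (SE 0.25), while Cenpe, a kinetochore motor, had -0.16 (SE 0.16). Cenpa, the centromeric histone, had 0.02 (SE 0.14). Nuf2 had 0.10 (SE 0.22), and -0.02 without KO pup 1, its highest library.

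Genes of the spindle checkpoint and of the anaphase-promoting complex had log2 fold changes between -0.21 (Bub1b, SE 0.14) and 0.14 (Ttk, SE 0.24). The place of Ttk at the upper end rests on KO pup 1, its highest library (20.0 CPM), since Ttk was at -0.05 without that pup. Bub1, lowest in KO pup 1, went from -0.05 to 0.10 and was then the upper end, next to Ube2c at 0.09. Bub1b, a checkpoint kinase gene, measured 35.4, 25.6, 38.6 and 34.6 CPM in KO and 31.2, 41.0, 41.5 and 41.7 CPM in WT. WT pup 5 lay among the KO pups and the other WT pups above them, so the groups overlapped, and Bub1b was not called (edgeR adjusted p 0.635). Cdc20, an activator of the complex, was the highest mitosis member per length in WT (27.65 CPM per kilobase), with 45.3 to 59.2 CPM in KO and 45.2 to 62.7 CPM in WT. Ube2c, its ubiquitin-conjugating enzyme, had a log2 fold change of 0.13 (SE 0.18). The chromosomal passenger genes Aurkb and Birc5 (survivin) had 0.13 (SE 0.16) and 0.11 (SE 0.19), and Birc5 was at -0.01 without KO pup 1, its highest library. Among 8 genes of the spindle and of cytokinesis the values ran from -0.15 (Kif11, SE 0.24) to 0.15 (Anln, SE 0.15). Anln, the anillin of the cleavage furrow, measured 53.1, 32.7, 56.8 and 53.8 CPM in KO and 39.2, 44.8, 47.5 and 46.1 CPM in WT, so that 3 KO pups lay above and KO pup 2 below every WT pup. Kif11, a motor that separates the spindle poles, measured 28.6 CPM in KO pup 1 against 37.6 to 62.6 CPM in the other KO pups, and its fold change was 0.02 without KO pup 1. Tpx2 went from 0.06 (SE 0.16) to -0.04 without that pup, its highest library.

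**Figure D2:**
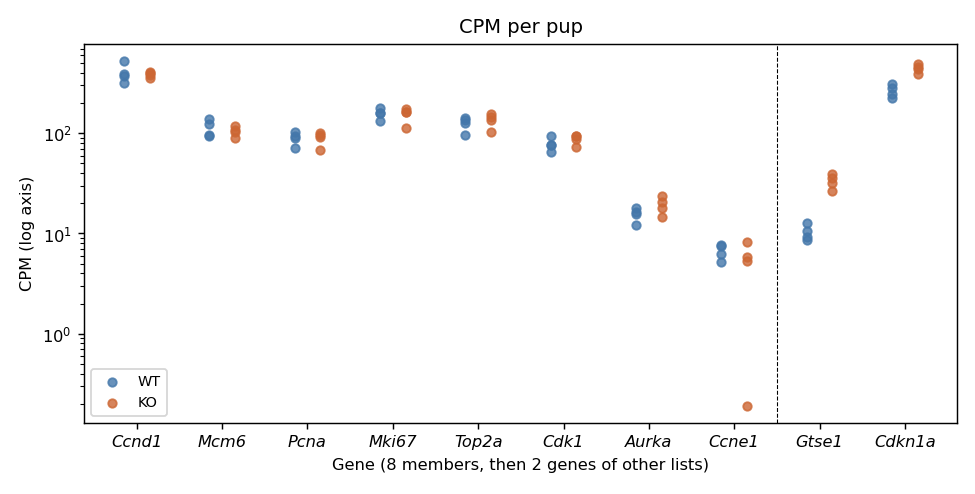
CPM on a log axis for 8 members and, right of the dashed line, Gtse1 and Cdkn1a of other lists; each point is 1 pup, WT in blue and KO in orange. The members overlap between genotypes, with KO pup 1 at 0.192 CPM for Ccne1, while all KO pups lie above all WT pups for Gtse1 and Cdkn1a.

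A score was formed for each library as the mean log2 CPM of the members of a set, with a prior count of 2. The replication score was 4.51, 4.59, 4.98 and 4.91 in KO pups 1 to 4 and 4.42, 5.01, 4.72 and 4.98 in WT pups 5, 1, 2 and 3. The means were 4.75 ± 0.23 in KO and 4.78 ± 0.28 in WT (SD, n = 4 each), a difference of -0.04. The mitosis score was 5.23, 4.79, 5.38 and 5.21 in KO and 4.76, 5.11, 5.20 and 5.31 in WT. The means were 5.15 ± 0.25 in KO and 5.09 ± 0.24 in WT, a difference of 0.06. In both scores the difference between genotypes was under 1 SD of the pups within a genotype, and no test was made on scores. With the median in place of the mean the mitosis difference was -0.06, so its sign is not settled. Between the lowest and the highest pup the replication score spanned 1.51-fold and the mitosis score 1.53-fold. With cage by title as a term the differences were 0.33 and 0.39, and by file name -0.23 and -0.16, each of which rests on 1 WT pup that shares the KO cage, and no member was called in either fit.

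**Figure D3:**
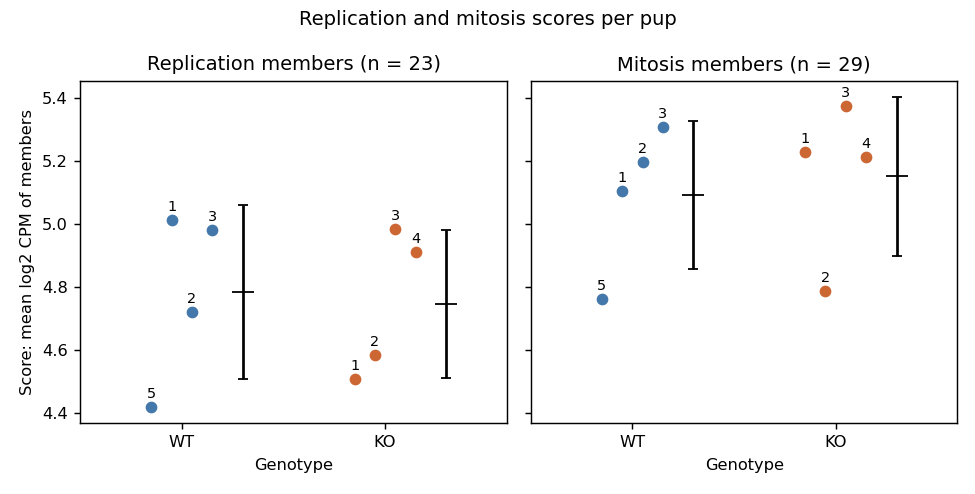
Replication score (left) and mitosis score (right) in mean log2 CPM for each pup, labelled by pup number, with the mean and SD of each genotype beside the points. The genotypes overlap in both scores, and WT pup 5 and KO pup 2 are the lowest in the mitosis score, at 4.76 and 4.79.

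The spread between pups was shared by most mitosis members. KO pup 2 and WT pup 5 were the lowest 2 libraries for 22 of 29 mitosis members and for 13 of 23 replication members, although they differ in genotype. WT pup 5 was among the lowest 2 for 27 mitosis and 21 replication members, and KO pup 2 for 24 and 14. KO pup 3 was the highest library for 12 mitosis members. It also had the highest sum of microglia and macrophage markers (2537 CPM), a part that was not tested. WT pup 5 had the highest sum of erythroid markers (1630 CPM), and its total of 25.9 M and that of KO pup 2 (24.2 M) lay near that of KO pup 3 (24.6 M). The part of erythroid cells and of total counts in these low and high values was not tested. After subtracting the mean of each genotype, the median correlation between pairs of mitosis members was 0.76 over the 8 libraries, between pairs of replication members 0.56 and across the sets 0.56. Prc1 and Bub1b followed the other mitosis members most closely (r = 0.98 and 0.97), and Bub1 (0.54) and Kif11 (0.58) least. All libraries carry every gene and share 1 scaling, so these correlations describe the pups and have no p. Without KO pup 2 and WT pup 5 the median within the mitosis set was 0.32 and across the sets 0.03.

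**Figure D4:**
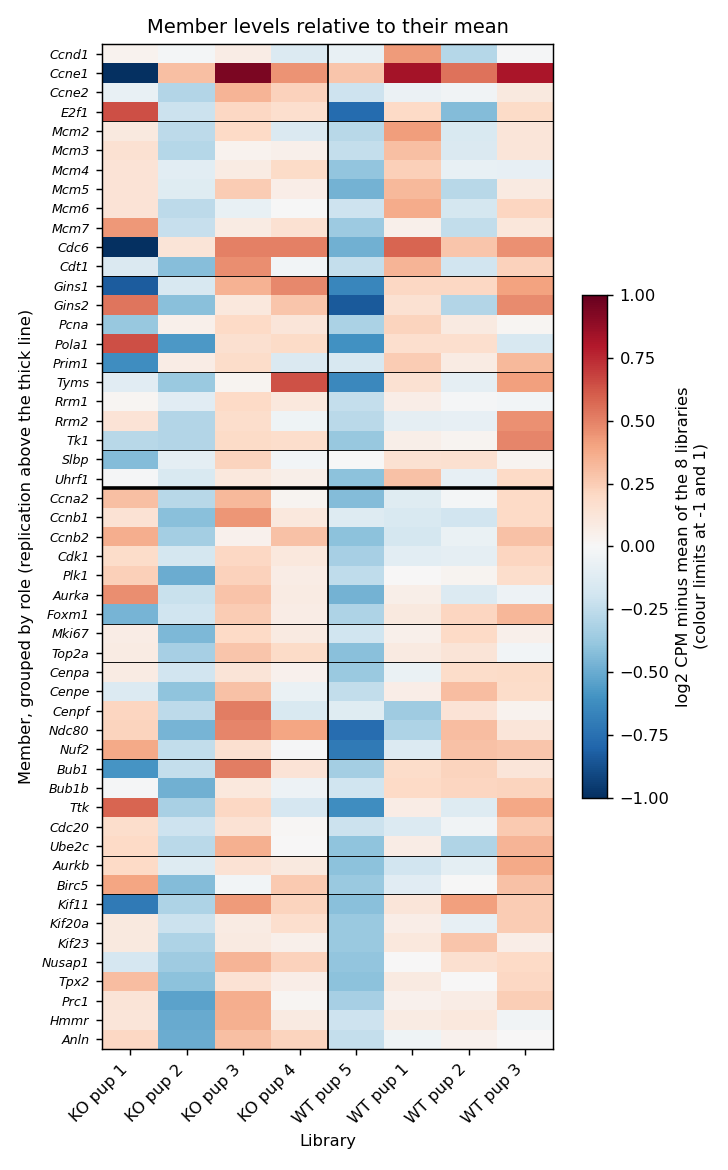
Log2 CPM of each member minus its mean over the 8 libraries, from blue (lower) to red (higher) with colours limited at -1 and 1; rows are members grouped by role, replication above the thick line, and columns are libraries. KO pup 2 and WT pup 5 are blue for most members, and KO pup 1 holds the darkest blue cells at Ccne1 and Cdc6 beside red cells at E2f1 and Pola1.

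KO pup 1 departed from the shared pattern in the replication set. It was the lowest of the 8 libraries for 6 replication members (Ccne1, Cdc6, Gins1, Pcna, Prim1 and Slbp) and the highest for 4 (E2f1, Gins2, Mcm7 and Pola1). In the mitosis set it was the lowest for 3 (Bub1, Foxm1 and Kif11) and the highest for 7. Its mitosis score exceeded its replication score by 0.72, against 0.20 to 0.39 in the other KO pups and 0.09 to 0.48 in WT pups. Much of that gap comes from Ccne1 and Cdc6, at -4.165 and -1.97 log2 CPM from their means over the 8 libraries. With medians in place of means its replication score was 4.82 and its mitosis score 5.02, a smaller gap, though still the widest of the 8 libraries. Without KO pup 1 the median correlation between replication members was 0.76 and between mitosis members 0.83. Then 17 of 23 replication members followed the rest of their set at r above 0.8, against 6 with all pups. E2f1 went from 0.49 to 0.97 and Mcm7 from 0.38 to 0.94, while Ccnd1 stayed low, at 0.34 and 0.44.

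The replication and mitosis scores were related across the 8 pups with Pearson's r of 0.68 and Spearman's rho of 0.48. As deviations from the genotype means r was 0.70, and without the 2 pups farthest from the median replication score (KO pup 1 and WT pup 5) it was 0.76 with rho 0.43. Without KO pup 1 alone r was 0.86, without WT pup 5 alone 0.48, and with medians in place of means 0.88. Without KO pup 2 and WT pup 5, the pups lowest in mitosis score, r was 0.13 over the remaining 6, so the value of r for the mean scores rests on those pups. They were picked after seeing the scores, and leaving out the low end narrows the range, which by itself lowers r. Medians gave 0.81 over the same 6 pups, which include KO pup 1. No p is given, since the scores are means over chosen genes.

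**Figure D5:**
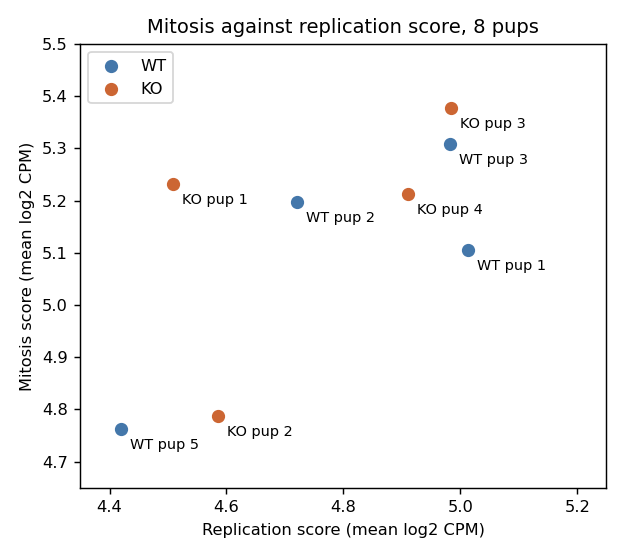
Mitosis score against replication score, both in mean log2 CPM, with 1 labelled point per pup, WT in blue and KO in orange. WT pup 5 and KO pup 2 lie low on both axes, and KO pup 1 lies at 4.51 on the replication axis with a mitosis score of 5.23.

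Other genes of the cycle were read from 6 lists. Of the other G2/M genes, 1 of 32 rose and none fell (list median -0.01). Over all tested genes 0.276% were called higher and 0.113% lower. The G2/M gene that rose was Gtse1, a microtubule-binding protein gene of G2 whose product is known to carry p53 out of the nucleus. Gtse1 measured 39.6, 26.8, 35.8 and 32.0 CPM in KO and 9.22, 10.5, 8.66 and 12.7 CPM in WT. All KO pups lay above all WT pups, and the log2 fold change was 1.71 (SE 0.16, adjusted p 0.00057), a 3.26-fold rise. Among the cell-cycle brakes 1 of 15 tested genes rose and none fell (median -0.03): Cdkn1a measured 392, 488, 437 and 454 CPM in KO and 285, 245, 308 and 225 CPM in WT. The groups did not overlap (log2 fold change 0.74, SE 0.11, adjusted p 0.0111). Over all tested genes, 7.19% had groups without overlap in either direction. At an unadjusted edgeR p under 0.05 each of these lists held 3 genes, of 32 and 15 tested, against 11.1% of all tested genes. Gtse1 lost its call with cage as a term (1.86, adjusted p 0.07 by title, and 1.40, adjusted p 0.186 by file name) and among the pups of the KO cage by title (1.86, adjusted p 0.0561), and kept it in the other 17 of 20 alternatives (adjusted p 1.01e-19 to 0.186 over all 20). Cdkn1a kept its call in 13 of 20 (adjusted p 4.27e-08 to 0.423). It lost the call with cage as a term (0.64, adjusted p 0.423 by title, and 0.97, adjusted p 0.131 by file name), over KO and WT pups 1 to 3 alone (0.76, adjusted p 0.101), among pups of the KO cage (0.64, adjusted p 0.202), without KO pup 2 (0.68, adjusted p 0.0589) and without WT pup 1 (0.70, adjusted p 0.0512). Both fold changes were above 0 in all 20. Exons of Cdkn1a overlap AC167363.2 on the other strand.

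None of the other 4 lists held a called gene. Over 28 other S-phase genes (median 0.08), the smallest p belonged to Cdca7 (log2 fold change -0.50, adjusted p 0.133), the helicase genes Blm (0.51, adjusted p 0.174) and Hells (0.49, adjusted p 0.226), and Casp8ap2 (0.28). DESeq2, which called 352 genes in all against 55 with edgeR, called Cdca7 lower (adjusted p 0.0148) and Blm higher (adjusted p 0.0429). With edgeR neither was called, and with cage as a term the edgeR adjusted p reached 0.743 for Cdca7 and 0.888 for Blm. Among 27 genes of origin recognition and the replisome (median 0.07), Orc2 measured 0.34, Pola2 -0.23, Rfc1 0.20 and Prim2 0.33. In the 14 genes of E2F, MuvB and B-Myb (median 0.04), which form the activators and repressors of the members, E2f4 measured -0.23, Lin54 0.26, Tfdp2 0.17 and Lin37 0.32. Of 12 G1 cyclin, CDK and CDC25 genes (median -0.05), Cdk6 measured -0.28, Cdc25a -0.22, Ccnd3 -0.16 and Myc 0.23. At an unadjusted p under 0.05 the lists held 3, 3, 2 and 1 genes in that order, against 11.1% of all tested genes.

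For 13 members, exons overlap those of a gene on the other strand, and since the strand setting of the counting is not given, their reads cannot be told apart. They include Mcm7 (Ap4m1 and Cops6), Ccne2 (Ints8), Ccna2 (Exosc9), Nusap1 (Oip5) and Kif20a (Cdc23). For Mcm7, Top2a and Foxm1 exons also overlap a gene on the same strand. Pcna, Tyms, Ccnb1 and Ccnb2 have annotated pseudogenes that could share reads with them.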

How the data were processed

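Messenger RNA of endothelial cells from 4 KO and 4 WT pups was sequenced as single-end reads of 100 bp from stranded poly(A) libraries, per the labels' protocols. The authors deposited whole-number counts per gene, and STAR, featureCounts and GRCm38 are named per the submitters' processing notes, while the sources used here give no versions, annotation or strand setting. Symbols, positions and exon lengths came from GENCODE M21. Genotype groups and pup numbers came from the sample titles. The model was edgeR's (version 4.0.16, under R 4.3.3, with filterByExpr at a minimum count of 10 and total of 15, TMM, quasi-likelihood F test, and genotype as the only term), adjusted by Benjamini-Hochberg over all 14154 tested genes with a threshold of 0.05. The fit was tested on simulated counts. Levels are TMM-scaled CPM. Members, lists and their roles were chosen with earlier results of these data known. All members could be named, and from each other list the called genes or else the 4 with the smallest p. No 2 libraries held the same counts (chi-square per gene at least 16.3). Alternatives used DESeq2 1.42.0, limma-voom (limma 3.58.1), other scalings, filters, cage terms and left-out libraries.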

Additional observations from a re-analysis of the deposited data

Results flagged for a closer look

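In groups of 4 pups, 1 library stood far from the other 3 in log2 CPM for 8 of 146 gene or score groups tested, 6 of them among the 104 groups of members. Chance flags about 1 group in 20. Ccne1 measured 0.192 CPM in KO pup 1 against 5.26 to 8.25 CPM in the other KO pups, and Cdc6 measured 1.49 CPM there against 6.51 to 8.48 CPM. KO pup 1 was also the high library for Casp8ap2, a histone-gene regulator, with 54.2 CPM against 37.9 to 39.5 CPM. KO pup 2 was low for Kif23, a motor of the central spindle, with 38.0 CPM against 48.7 to 50.4 CPM, and for Anln, with 32.7 CPM against 53.1 to 56.8 CPM. WT pup 5 was low for Bub1b, with 31.2 CPM against 41.0 to 41.7 CPM. WT pup 3 was high for Ccnb1, with 21.9 CPM against 16.7 to 17.4 CPM. KO pup 4 was low for the E2F partner gene Tfdp2, with 62.5 CPM against 73.9 to 75.7 CPM.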

How the results depend on the processing

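No member was called under any of the 20 alternative fits, whose smallest adjusted p among members ran from 0.377 (without KO pup 2) to 0.878 (cage by file name). The signs of the members' fold changes were not stable: 18 of 52 changed sign with cage by title, 21 with cage by file name and 11 without KO pup 1, and such changes of uncalled values were not counted as reversals. Over all genes, 55 were called. That number was 84 with no filter, 352 with DESeq2, 16 with cage by title, 10 with cage by file name, 22 within the KO cage by title, 11 with a replicate block of pup number over 6 libraries (23 without the block, chosen after seeing the data), and 32 to 85 leaving out 1 library, the ends being without KO pup 3 and without KO pup 1, with 36 without KO pup 2. Of the genes of the other lists 2 were called. That number was 4 with DESeq2, 0 with either cage term or within the KO cage, 1 with the replicate block or the same 6 libraries, and 1 to 2 leaving out 1 library. With cage by title the score differences were 0.33 (replication, reversed in sign) and 0.39 (mitosis). Leaving out 1 library gave -0.17 to 0.04 and -0.06 to 0.17. The correlation of the scores was 0.88 with medians, 0.79 with members standardised, 0.91 without KO pup 1 and WT pup 2, 0.13 without KO pup 2 and WT pup 5 (chosen after seeing the data), and 0.48 to 0.86 leaving out 1 library. The cause of these changes was not tested, and the fit within the KO cage by title held WT pup 5 as its only WT pup. All 52 members passed the filter on low counts, so scores restricted to members that pass it are the scores reported. With all libraries thinned to the lowest total, 0 members were called and the correlation of the scores was 0.70. Pups 1, 2 and 3 of the genotypes are different animals whose deviations correlated at -0.03, 0.03 and -0.07 over genes. Pup number was not used as a pairing in the main fit, though such values cannot exclude a shared step that touches some genes. With that replicate block Cdkn1a was 0.77 (adjusted p 0.121).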

Other observations

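Genes outside the 52 members also followed the pups' scores. After subtracting genotype means, 15 of 32 other G2/M genes followed the mitosis score at r above 0.8 over the 8 libraries, against 1.53% of all tested genes. Of 28 other S-phase genes 5 followed the replication score at that level, against 1.94% of tested genes. Without KO pup 1 the numbers were 21 of 32 (3.61% of tested genes) and 12 of 28 (4.26%). Without KO pup 2 and WT pup 5 none of the 32 followed the mitosis score (2.19% of tested genes) and 6 of 28 the replication score (13.8%). These are descriptions over libraries that share depth and scaling, and no test was made.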
